A study of Homo sapiens with 6 samples.

Results

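The chromosome arms 1q, 12p, 17q and 20q are recurrently gained when human pluripotent stem cells are kept in culture, and the open chromatin counted on them was compared here between sorted populations of the embryonic stem cell line WA09. Regions of the count table belonged to these arms when their midpoint lay, in hg19, beyond 145 Mb on chromosome 1, below 34.8 Mb on chromosome 12, beyond 25.3 Mb on chromosome 17 or beyond 29.4 Mb on chromosome 20. This took 10791 of 118556 regions (9.10%), of which 4741 lay on 1q, 1439 on 12p, 3008 on 17q and 1603 on 20q. The band 20q11.21, from 29.4 to 32.1 Mb, held 138 of the 20q regions. Each arm was set against the other arm of its chromosome, with 5680 regions on 1p below 120 Mb, 4182 on 12q beyond 38 Mb, 1071 on 17p below 22 Mb and 984 on 20p below 26 Mb.

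The high population was sorted as GCTM-2highCD9highEPCAMhigh and the mid population, which the sample titles call low, as GCTM-2midCD9mid, with 3 biological replicates of each and no treatment in either. All cells came from WA09, so the libraries describe a single line, and the methods report a diploid karyotype by G-banding for the lines used. Open chromatin was measured by FAST-ATAC, an assay in which a transposase (Tn5) attaches sequencing adapters where DNA is accessible. Total counts ran from 15486251 to 29025274 reads per library. Marker genes of the sort could not be checked, because the regions carry no gene names and no hg19 annotation was used.

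Gains of these arms are the changes for which stem cell cultures are most often screened, since cells that carry them can outgrow their neighbours. 20q11.21 carries BCL2L1, which encodes an inhibitor of apoptosis and is often named as a driver of the gain of that band. NANOG, a core pluripotency factor, lies on 12p, BIRC5, another inhibitor of apoptosis, on 17q, and MDM4, an inhibitor of p53, on 1q. Reads in open regions follow both the number of DNA copies and how open the chromatin is, and these cannot be told apart in the counts. A comparison of high with mid cells shows a gain only where the populations carry it in unequal shares, because a gain shared equally cancels. An extra copy in every cell of the high population and in no mid cell would raise the log2 ratio of high over mid by 0.585, in 50% of cells by 0.322, in 20% by 0.138 and in 10% by 0.0704. The limit of 0.1 used below equals an extra copy in 14.4% of cells.

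The high population had fewer reads on 20q and 17q than the mid population, slightly more on 1q, and overlapping shares on 12p. On 20q, 1.11%, 1.23% and 1.33% of reads fell in high replicates 1, 2 and 3, and 1.49%, 1.57% and 1.5002% in mid replicates 1, 2 and 3. The means were 1.22% ± 0.110 and 1.52% ± 0.0407 (SD, n = 3 each), and every high library lay below every mid library. On 17q the shares were 2.78%, 3.02% and 3.15% in the high libraries and 3.55%, 3.60% and 3.46% in the mid libraries, again without overlap. On 1q the order was the opposite, with 4.36%, 4.35% and 4.34% in the high libraries and 4.27%, 4.16% and 4.21% in the mid libraries. The 18 other autosomes together had the same order as 1q, at 77.2%, 76.6% and 76.2% in high and 75.3%, 75.2% and 75.5% in mid libraries. This order was thus not particular to 1q. The 12p shares overlapped, at 1.18%, 1.16% and 1.21% in high and 1.23%, 1.19% and 1.19% in mid cells. In 20q11.21 the high libraries had 0.0935%, 0.106% and 0.114% of their reads and the mid libraries 0.129%, 0.154% and 0.139%. The direction in 20q and 20q11.21 was that of fewer reads in the high population, the population sorted for the highest levels of the stem cell antigens.

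**Figure D1:**
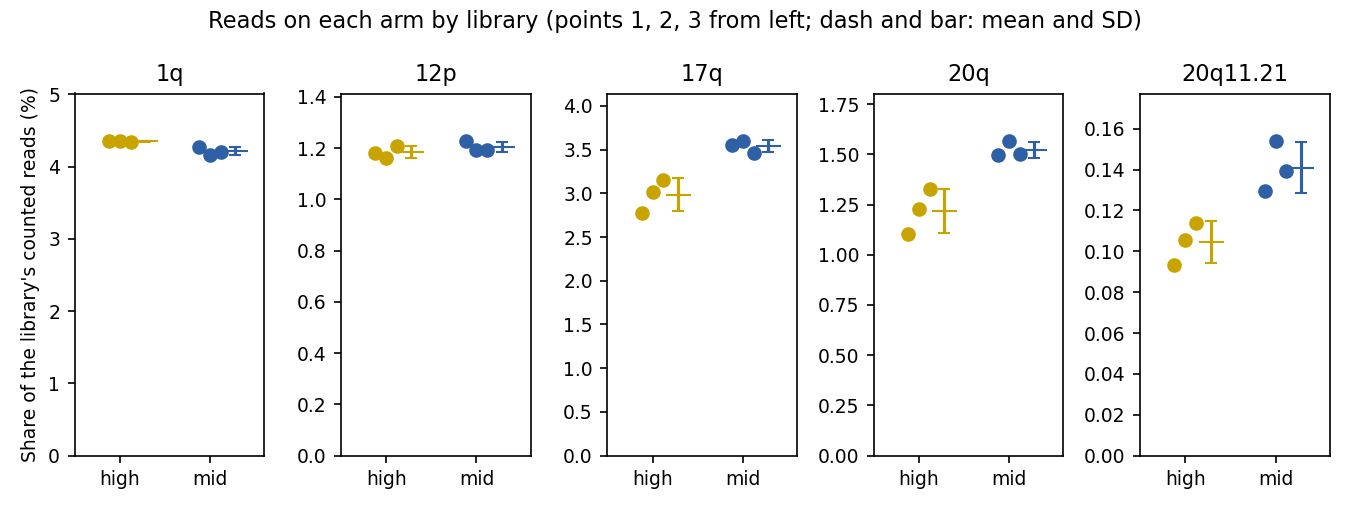
Share of each library's counted reads (%) on 1q, 12p, 17q, 20q and 20q11.21, with points for replicates 1, 2 and 3 of each population and a dash and bar for the mean and SD. On 20q the high libraries sit between 1.11% and 1.33% and the mid libraries between 1.49% and 1.57%.

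Reads were next summed in bins of 2 Mb, and the log2 ratio of high over mid was taken within the 3 same-numbered pairs of libraries, each scaled to its total count. The median bin of 20q stood at -0.39, -0.36 and -0.18 in pairs 1, 2 and 3, and that of 20p at 0.07, -0.13 and -0.02. Set against 20p, 20q was therefore lower in the high population by 0.46, 0.23 and 0.16 on the log2 scale, a mean difference of -0.28 ± 0.16 (SD over pairs, n = 3). In an exact two-sided permutation test of the 6 library levels this gave p = 0.1, the smallest value that 3 against 3 libraries allow. This test, also used below, treats the libraries as unpaired. The 17q bins were also below 0, at -0.37, -0.26 and -0.11, but 17p was lower still, at -0.47, -0.47 and -0.16. Against its other arm 17q was thus higher in the high population by 0.10, 0.22 and 0.05 (mean 0.12 ± 0.09, exact permutation p = 0.1), while against the bins of the 18 other autosomes it was lower (mean -0.40). The 1q bins exceeded those of 1p by 0.24, 0.24 and 0.11 (mean 0.20 ± 0.07, exact permutation p = 0.1). Against the bins of the 18 other autosomes they stood at -0.03, 0.04 and 0.03 (mean 0.01), so 1q lay near the level of those autosomes. The 12p bins differed from those of 12q by -0.07, -0.04 and 0.01 (mean -0.03 ± 0.04, exact permutation p = 0.2), and its library levels overlapped between populations.

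At no centromere was the gained arm higher than the other arm by 0.1 in all 3 pairs, when the 3 nearest bins on each side were compared. The 3 nearest bins of 20q stood at -0.47, -0.54 and -0.25, and the 3 nearest bins of 20p at -0.24, -0.56 and -0.24. The step between them was -0.23 in pair 1, 0.02 in pair 2 and -0.01 in pair 3. The fall toward the level of 20q began inside 20p, where the largest step, at 20 Mb, measured -0.37, -0.49 and -0.26. Against only these 3 inner bins of 20p, a comparison added after the profile had been seen, 20q was at -0.15, 0.20 and 0.06 (mean 0.03 ± 0.18), so the difference between the arms rested on the bins of 20p farther from the centromere. The inner bins of 17q and 17p differed by at most 0.04 in every pair. Across the centromere of chromosome 1 the inner bins of 1q were lower than those of 1p by 0.54, 0.35 and 0.20. Those of 12p differed from those of 12q by -0.37, -0.14 and 0.04.

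**Figure D2:**
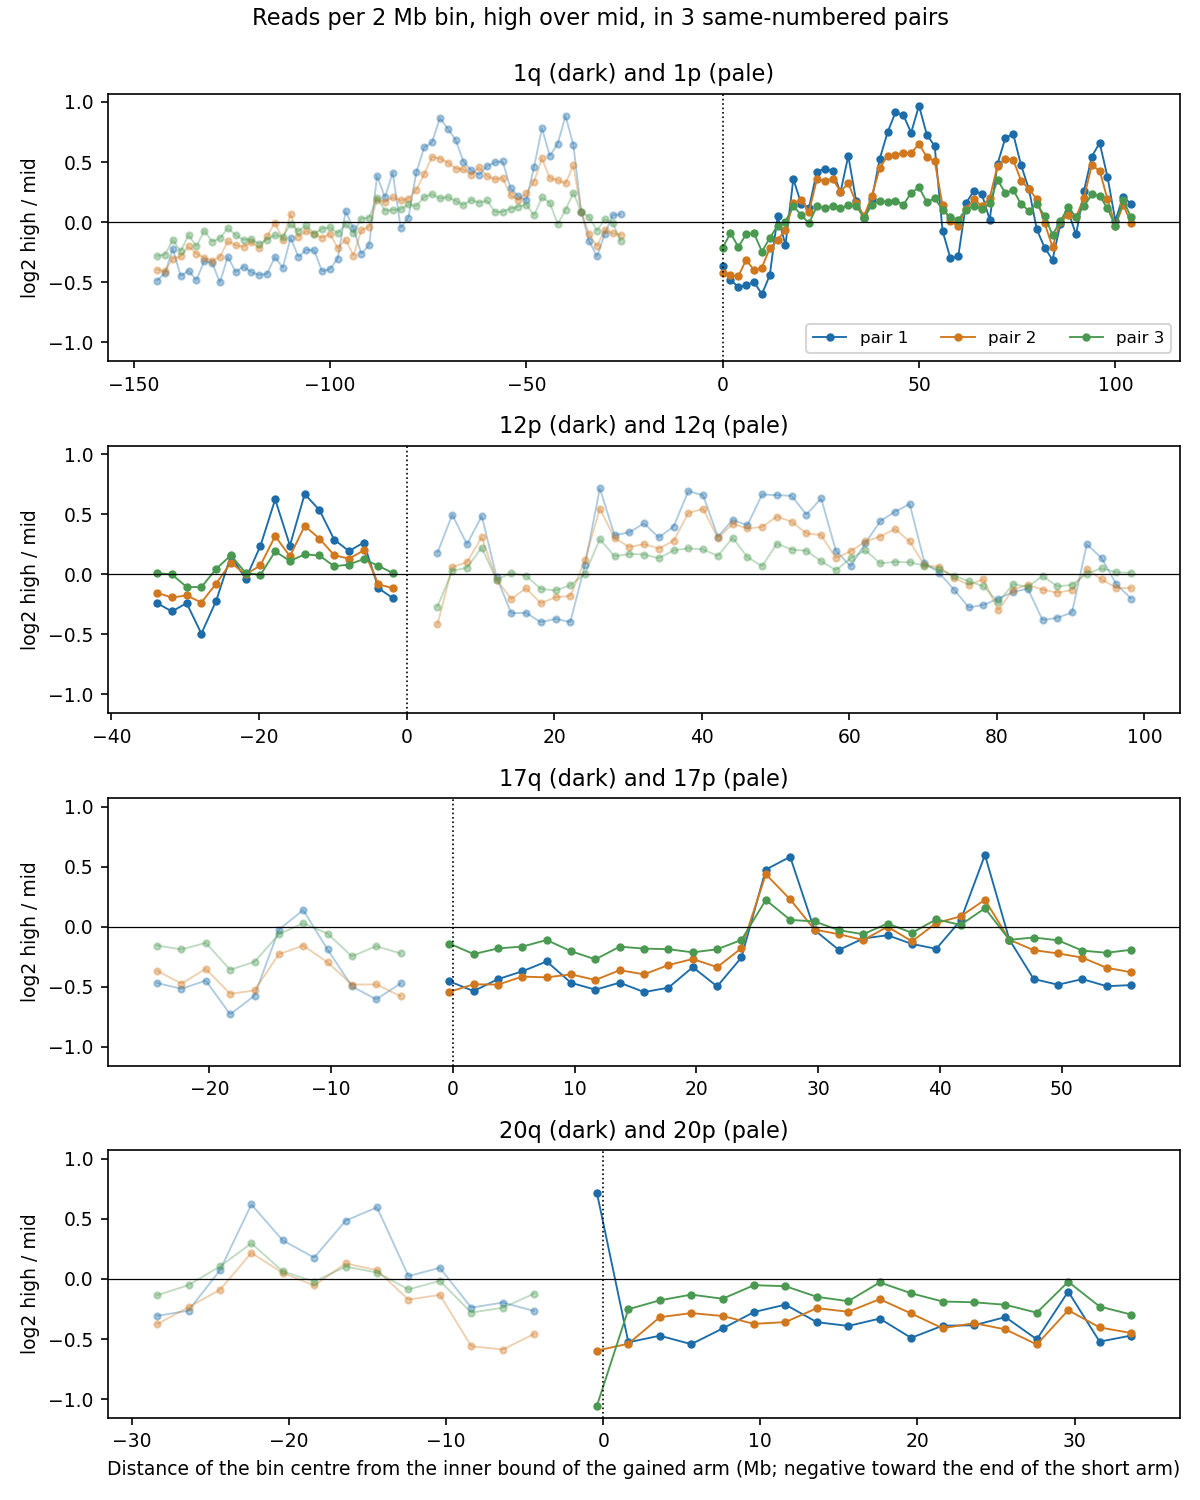
Log2 ratio of high over mid reads per 2 Mb bin, each library scaled to its total, along the 4 gained arms (dark) and their other arms (pale), against distance in Mb from the inner bound of the gained arm, with a line for each of the 3 same-numbered pairs. All bins of 20q beyond the first lie below 0 in each pair, and the 3 inner bins of 20p lie at a similar level.

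On 1q, 12p and 17q the 3 pairs traced similar profiles of different height, with r between pairs of at least 0.837 within each arm. On 20q they did not, with r = -0.33 between pairs 1 and 2, -0.75 between 1 and 3 and 0.70 between 2 and 3 over its 18 bins. Without the first of these bins the values were 0.37, 0.70 and 0.73. Over the 117 bins the values of pairs 1 and 2 correlated with r = 0.90, pairs 1 and 3 with r = 0.66 and pairs 2 and 3 with r = 0.87, as a description across bins that share libraries and that differ in level between arms. The spread of bins was 0.43, 0.32 and 0.18 (SD) in pairs 1, 2 and 3, and in the 18 other autosomes 0.38, 0.29 and 0.14. A breakpoint scan compared the medians of all bins on either side of each bin boundary with at least 3 bins on each side. Neighbouring boundaries share most of their bins, so a single change of level can be counted at several boundaries. A step of 0.1 or more in all 3 pairs was found at 29 of 97 boundaries in the gained arms (29.9%), at 70 of 112 in their other arms (62.5%) and at 142 of 1019 in the 18 other autosomes (13.9%). Of the 29, 19 were on 1q, 8 on 17q, 2 on 12p and none on 20q. The 18 other autosomes were scanned as whole chromosomes and the arms singly, so these shares were taken over stretches of unlike length. The largest step was 0.70, 0.63 and 0.33 in the 3 pairs at 150 Mb on 1q, 0.51, 0.31 and 0.13 at 8 Mb on 12p, 0.34, 0.31 and 0.14 at 50 Mb on 17q and 0.08, 0.18 and 0.09 at 34 Mb on 20q. The largest step of any autosome, a mean of 0.64, lay on chromosome 13, outside the gained arms.

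Relative to the other arm, 61 of the 117 bins (52.1%) passed 0.1 with the same sign in all 3 pairs, 39 of them higher in high and 22 higher in mid cells. When each arm was instead centred on its own median, 31 bins (26.5%) passed, against 59 of 132 in the other arms (44.7%). In the 18 other autosomes, each centred as a whole chromosome, 262 of 1109 passed (23.6%). On 1q the 7 bins from 144 to 158 Mb were lower in high cells (-0.45, -0.35 and -0.14 against 1p). They were followed by higher runs, of which the longest, 9 bins from 182 to 200 Mb, stood at 0.79, 0.60 and 0.17. The highest bin of 1q, from 194 to 196 Mb with 43 regions, was at 1.02, 0.70 and 0.28, and the lowest, from 154 to 156 Mb with 108 regions, at -0.55, -0.33 and -0.25. The low run held 84.6 regions per bin of median width 1193 bp, and the longest high run 74.8 per bin of 709 bp.

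On 17q 9 bins were higher than 17p in high cells, 4 from 50 to 58 Mb (0.70, 0.57 and 0.21) and 5 from 60 to 70 Mb (0.40, 0.50 and 0.19). The highest, from 50 to 52 Mb, stood at 0.95, 0.91 and 0.38, and the lowest, from 26 to 28 Mb, at -0.06, -0.01 and -0.07. On 12p 2 bins from 4 to 8 Mb were lower (-0.59, -0.32 and -0.16) and 2 from 20 to 24 Mb higher (0.38, 0.24 and 0.11). On each of 1q, 12p and 17q, bins both above and below 0 in all 3 pairs were present before any reference was subtracted.

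The profile of 20q was even. Its 18 bins averaged below 0 throughout, from -0.44 for 56 to 58 Mb to -0.13 for 58 to 60 Mb, and 17 of the 18 were below 0 in every pair. The SD of the bin means was 0.0841, the lowest but 1 of 26 arms and chromosomes after chromosome 22 (0.0727) and next to chromosome 19 (0.102), both of which were also below 0 in all bins. The remaining bin, from 28 to 30 Mb, holds the first 12 regions beyond the 20q bound and stood at 0.71, -0.60 and -1.06, so the pairs disagreed. Its reads were 58.2, 86.5 and 30.5 counts scaled to the library total (CPM) in high replicates 1, 2 and 3 and 35.5, 131 and 63.4 CPM in mid replicates 1, 2 and 3. By adjusted R-squared, differences between the 2 Mb bins accounted for 5.10% of the variance of the log2 fold changes of 20q regions. The values were 39.5% on 1q, 24.98% on 12p, 22.7% on 17q and 37.3% over all regions.

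The level of a chromosome moved with its base composition, which was measured for whole chromosomes and not for arms. Within the arms, median widths were 1067.5 bp on 17q, 938 bp on 20q, 908 bp on 1q and 871 bp on 12p, and over the 1109 bins of the 18 other autosomes the number and width of regions accounted for 51.0%, 33.7% and 27.0% of the variance in pairs 1, 2 and 3. The arms 17q and 17p, the latter with a median width of 1025 bp, had mean levels of -0.25 and -0.37. The arm 1p (949.5 bp) stood at -0.03 and 20q at -0.31. Over the 22 autosomes the median bin ratio fell as the GC content of the chromosome, measured in GRCh38, rose (Pearson r = -0.95, Spearman rho = -0.965, n = 22 chromosomes that share the same 6 libraries). Chromosome 20, at 43.8% GC, had the highest GC content but 4 and stood at -0.25 (mean of pairs), and chromosome 17, at 45.3% GC, the highest but 2 and stood at -0.30. Chromosomes 12 and 1, at 40.8% and 41.7% GC, stood at 0.12 and 0.09. Around the straight line over all autosomes chromosome 20 stood at -0.09, with only chromosome 21 farther below the line (-0.26), whereas chromosomes 17, 12 and 1 lay at -0.03, 0.01 and 0.07. Among the 26 arms and chromosomes 20q had the lowest median but 3, after chromosome 19 (-0.50), 17p (-0.37) and chromosome 22 (-0.33). After adjustment for the number and median width of the regions in each bin, added after seeing the data and fitted on the 18 other autosomes, 20q was the lowest, at -0.49, -0.45 and -0.19 (mean -0.38 ± 0.16), followed by 17p (-0.33). The adjusted difference was -0.20 between 20q and 20p, 0.21 between 17q and 17p, 0.07 between 1q and 1p and -0.09 between 12p and 12q. The part of base composition and width in these results was not tested.

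**Figure D3:**
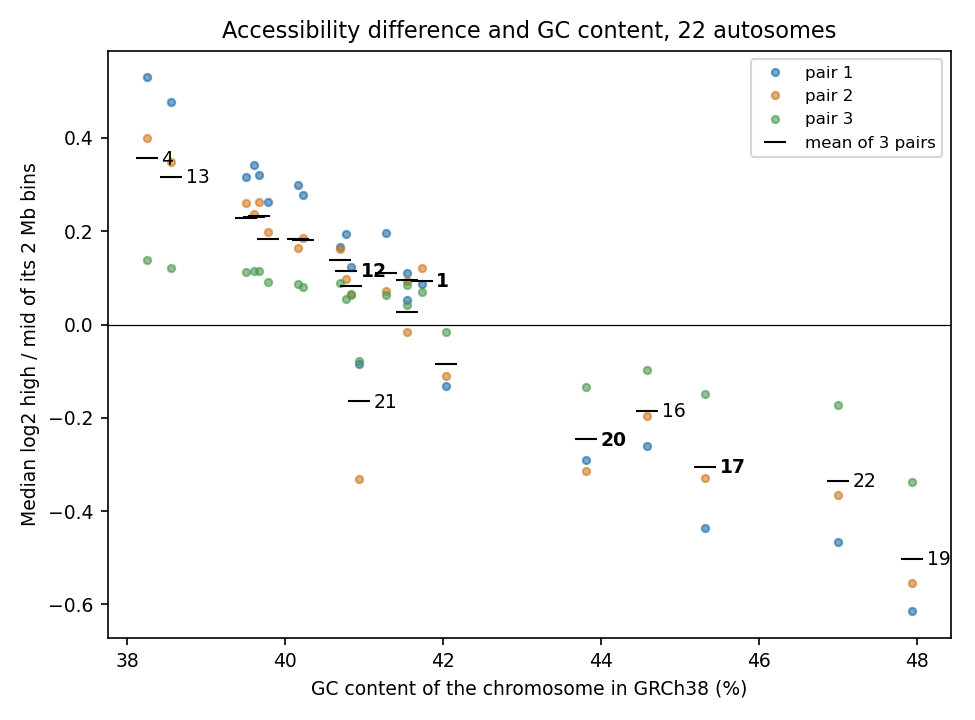
Median log2 ratio of high over mid of the 2 Mb bins of each of the 22 autosomes against its GC content in GRCh38 (%), with a point for each pair and a dash for the mean, and the chromosomes of the gained arms in bold. Chromosome 20 lies near the other GC-rich chromosomes 16, 17, 19 and 22, which are all below 0.

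Single regions were scaled with TMM factors in place of total counts. Their median log2 fold changes, like the bins, lay below 0 on 20q and 17q and above 0 on 1q. On 12p the sign went with the scaling. With total counts the mean level of bins was 0.10 and the median of regions 0.07. With TMM factors the median log2 fold change was -0.0046 for bins and -0.02 for regions. All 10791 entered edgeR's quasi-likelihood test, fitted on every region of the table with the replicate number as a block, and calls were made at 0.01 after Benjamini-Hochberg adjustment. Of them, 151 (1.399%) were higher in high and 649 (6.01%) higher in mid cells, against 2.32% and 3.77% of all regions. With total counts in place of TMM factors the counts were 286 and 471, and the share of calls in the high direction went from 18.9% to 37.8%. The median log2 fold change over all regions moved as well, from 0.03 to 0.12, so this shift was not particular to the 4 arms. With loess offsets on region width the counts were 190 and 418. Of the arms, 20q had 5 regions higher in high (0.312%) and 181 higher in mid cells (11.3%), and 17q had 14 (0.465%) and 307 (10.2%). These shares in the mid direction exceeded the background of all regions, and so did that of 17p, with none in high and 171 in mid cells (15.97%). On 17p 7 regions had an unadjusted p under 0.05 in the high direction, and DESeq2 also called none in that direction. On 1q 115 regions (2.43%) were higher in high and 126 (2.66%) in mid cells, and on 12p 17 (1.18%) and 35 (2.43%), all near or below the background. On 20p the counts were 12 (1.22%) and 44 (4.47%).

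**Figure D4:**
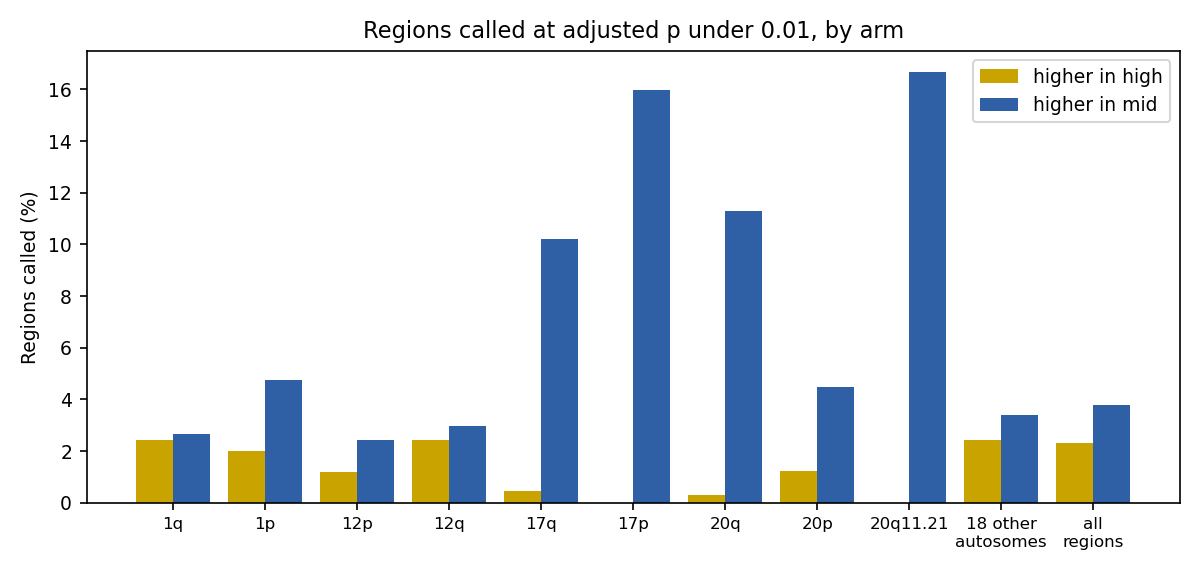
Share of regions (%) called higher in high or in mid cells at an adjusted p under 0.01 in edgeR's quasi-likelihood test, for the gained arms, their other arms, 20q11.21, the 18 other autosomes and all regions. The mid share is 11.3% on 20q, 10.2% on 17q and 15.97% on 17p, against 3.77% of all regions.

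The median log2 fold change of regions was -0.31 on 20q, -0.23 on 17q, 0.09 on 1q and -0.02 on 12p, against 0.03 over all regions. On 20q 811 regions (50.6%) were lower in high cells in all 3 pairs and 60 (3.74%) higher, whereas among all regions 22.2% were lower and 25.4% higher. The calls on 20q were spread along the arm, with at least 1 mid call in 17 of its 18 bins and at most 22 in a bin. On 1q 101 of the 126 mid calls lay in the low run from 144 to 158 Mb, which held 592 of its 4741 regions. The run from 182 to 200 Mb, with 673 regions, held 49 of the 115 high calls. On 17q the 2 higher runs from 50 to 58 and from 60 to 70 Mb, with 310 and 435 of its 3008 regions, held 16 of the 307 mid calls. All these runs were picked from the same counts as the calls, so such a split of calls was built in. Regions called in the mid direction were wide, with a median width of 2166 bp on 20q, 2530 bp on 17q, 2578.5 bp on 1q and 2282 bp on 12p, against 879 bp for all regions and 2409 bp for all mid calls. Without replicate 2, which left 2 libraries in each population, the mid calls fell to 16 on 20q and 29 on 17q. They also fell outside the gained arms, from 171 to 24 on 17p and from 44 to 2 on 20p.

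The same test on the bin sums called 15 of the 18 bins of 20q (83.3%) and 13 of the 29 of 17q (44.8%) higher in mid cells, against 15.9% of all 1437 bins. No bin of these arms was called higher in high cells, none had an unadjusted p under 0.05 in that direction, and DESeq2 called none either. The strongest bin of 20q, from 56 to 58 Mb, changed by -0.55 on the log2 scale (edgeR, standard error 0.07, adjusted p = 2.64e-12). On 1q 13 of 53 bins (24.5%) were called higher in high, against 15.1% of all bins, and 6 (11.3%) in mid cells. On 12p 1 of 17 bins (5.88%) was called in high and 3 (17.6%) in mid cells. Among the other arms, 9 of 11 bins of 17p and 4 of 13 bins of 20p were called in mid cells. The 3 inner bins of 20p, from 20 to 26 Mb, were among those 4, with log2 fold changes of -0.47, -0.45 and -0.39, beside -0.55 for the 20q bin from 30 to 32 Mb. Without replicate 2 no bin of the gained arms, nor of 17p or 20p, was called by edgeR's quasi-likelihood test in either direction. In the gained arms 6 bins had an unadjusted p under 0.05 in high and 20 in mid cells.

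The regions that carried the smallest p-values were wide and well covered. On 20q, the region at chr20:57463098-57468287 had 35.0, 34.1 and 32.2 TMM-normalised CPM in high replicates 1, 2 and 3 and 73.6, 78.8 and 64.7 in mid replicates 1, 2 and 3. For this region, picked by its p-value, edgeR gave a log2 fold change of -1.09 with a standard error of 0.12 and an adjusted p = 9.74e-09. On 17q the region at chr17:43224123-43227837 had 47.1, 54.3 and 45.9 CPM in high and 109, 101 and 87.4 in mid libraries (log2 fold change -1.01, standard error 0.12, adjusted p = 2.47e-08, edgeR). The sequence and the genes of these regions were not analysed here. On 1q the region at chr1:154971133-154978026, inside the low run, had 61.2, 66.4 and 61.3 CPM in high and 115, 118 and 107 in mid libraries (log2 fold change -0.85, standard error 0.11). On 12p the region at chr12:6872497-6879850 had 65.3, 76.5 and 65.2 CPM in high and 127, 119 and 107 in mid libraries (log2 fold change -0.77, standard error 0.11), and its call was lost with loess offsets on region width.

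In the high direction, the smallest p-value of 1q belonged to chr1:241586526-241588426, with 29.4, 25.5 and 23.9 CPM in high and 13.7, 13.2 and 15.5 in mid libraries (log2 fold change 0.89, standard error 0.14, adjusted p = 1.26e-05, edgeR). On 12p it was chr12:20123906-20125218, with 17.3, 14.3 and 12.3 CPM in high and 8.75, 7.62 and 7.67 in mid libraries (log2 fold change 0.86, standard error 0.16). Both lay in runs of bins that were higher in high cells, and both lost the call without replicate 2. On 17q it was chr17:68184967-68185556, where high replicate 1 stood apart at 17.9 CPM, with 9.17 and 6.41 CPM in the other high libraries and 3.15, 5.37 and 4.75 in mid libraries. On 20q the 5 regions called in the high direction included chr20:52739921-52740832, with 6.56, 6.28 and 9.33 CPM in high and 3.83, 4.03 and 3.79 in mid libraries. Neither of these kept the call without the replicate block.

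Among called regions with at least 20 reads per library on average and all 3 pairs in 1 direction, the largest changes per arm lay in narrower regions with fewer reads. In the high direction they were 1.46 at chr1:172528519-172529239, 1.38 at chr12:15437187-15437847, 1.52 at chr17:65561588-65562196 and 1.23 at chr20:33092661-33093159, as log2 fold changes. In the mid direction they were -1.29 at chr1:149584727-149585285, -1.17 at chr12:32169576-32170836, -1.28 at chr17:31732751-31733225 and -1.36 at chr20:61194608-61195109. The chr12 region in the mid direction had 3.94, 5.60 and 4.85 CPM in high and 15.3, 8.35 and 9.74 in mid libraries, and was the only one of these 8 that kept its call in every alternative. The other 7 held at most 3.99 CPM in any library and lost the call in at least 1 alternative.

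In 20q11.21, 23 of the 138 regions (16.7%) were called higher in mid cells, against 3.77% of all regions and 15.97% of those on 17p. None was called in high cells, against 2.32% of all regions. In that direction no region had an unadjusted p under 0.05, and DESeq2 made no call either. The median log2 fold change of the band was -0.41, and 79 of its regions (57.2%) were lower in high cells in all 3 pairs. That share was 22.2% among all regions and 54.4% on 17p. Against 20p the band was lower in the high population by 0.45, 0.30 and 0.24 (mean difference -0.33 ± 0.11, exact permutation p = 0.1). Against the rest of 20q it differed by -0.04, -0.21 and -0.12, and against the 3 inner bins of 20p by -0.20, 0.03 and -0.06. Leaving out the 12 regions of the first bin, where the pairs disagreed, gave -0.48, -0.29 and -0.20 against 20p.

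The region of the band with the smallest p-value, chr20:30191247-30197178, had 51.1, 43.2 and 53.8 CPM in high replicates 1, 2 and 3 and 111, 101 and 92.8 in mid replicates 1, 2 and 3 (log2 fold change -1.04, standard error 0.12, adjusted p = 1.71e-08, edgeR). The next 4 were chr20:30310059-30312329, chr20:31348373-31353342, chr20:31069752-31073512 and chr20:30605196-30607708, with log2 fold changes from -0.94 to -0.88. In these 4 the high libraries ranged from 22.04 to 34.0 CPM and the mid libraries from 40.9 to 63.4 CPM. In each of the 5 all high libraries lay below all mid libraries, which a choice by smallest p-value favours and which adds no further evidence. Only chr20:31069752-31073512 lost its call without replicate 2.

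**Figure D5:**
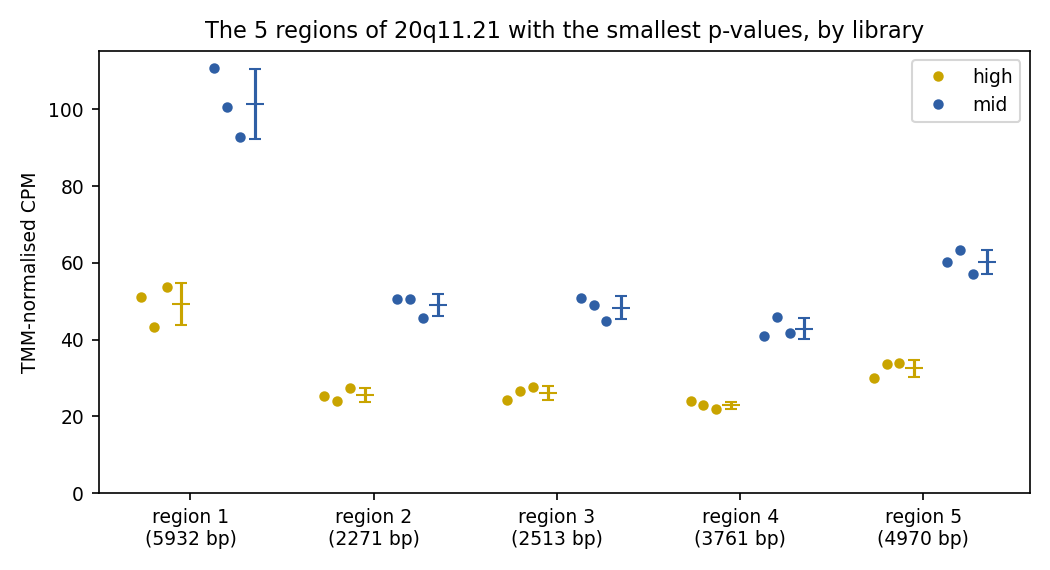
TMM-normalised CPM of the 5 regions of 20q11.21 with the smallest p-values, in order along the band, with points for replicates 1, 2 and 3 of each population and a dash and bar for the mean and SD. High libraries lie between 22.04 and 53.8 CPM and mid libraries between 40.9 and 111 CPM. The choice by p-value favours regions without overlap.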

How the data were processed

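The 6 WA09 libraries were those of the high and mid populations. The authors trimmed reads, aligned them to hg19 with BWA (0.7.15 per the labels), discarded duplicates, moved each read onto its cut site and ran MACS on pooled replicates. Regions of the populations were then merged, and the deposited values are raw read counts per region and library, without normalisation. Region starts were read as counting from 0 and are printed 1 higher. Coordinates of the last region on chromosome 1 exceed GRCh38, so the reference genome served only for GC content of whole chromosomes, and no gene was assigned and no sequence printed.

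The counts of all 118556 regions, unfiltered, went through edgeR 4.0.16 (R 4.3.3) by its quasi-likelihood test, with TMM factors, replicate number as block and Benjamini-Hochberg adjustment. The same test was run on 1437 bins of 2 Mb with at least 5 regions. DESeq2 1.42.0, limma 3.58.1 and Python 3.11.15 served for alternatives and bins. Same-numbered libraries deviated together from their population means (r from 0.191 to 0.302 over regions, against -0.257 to 0.0599 for other pairs), so the numbers pair the libraries. Replicates are biological per the methods, and p-values measure the spread among these libraries.

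Named regions had, per arm and direction, the smallest p or the largest change among called regions with at least 20 reads per library on average and all 3 pairs in 1 direction. The band gave up to 5 called regions by p, and each arm its highest and lowest bin. The arms, lists and tests were chosen with earlier results of these data known. The region test and the step scan were tested on simulated data. Counts are reads, so no interval is given for shares beyond the spread of replicates.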

Additional observations from a re-analysis of the deposited data

How the results depend on the processing

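Regions of the 4 arms called higher in high and in mid cells numbered 151 and 649. They numbered 11 and 185 with no replicate block, 52 and 563 with DESeq2, 286 and 471 with total counts, 190 and 418 with loess offsets on width, and 435 and 1212 at an adjusted p under 0.05. Leaving out a replicate gave 18 to 191 in high and 58 to 719 in mid cells, lowest without replicate 2. No called region was called in the opposite direction under any alternative fit. For bins, the counts of 14 and 37 became 15 and 43 with no replicate block, 22 and 31 with total counts, 21 and 63 with 1 Mb bins and 6 and 16 with 5 Mb bins, and 0 to 22 and 0 to 43 when a replicate was left out.

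The 61 bins past 0.1 in all pairs became 19 at a limit of 0.2, 106 with 1 Mb bins, 24 with 5 Mb bins and 35 after adjustment for region number and width. The 29 boundaries with a step, which are not separate steps, became 11 at 0.2, 70 with 1 Mb bins and 8 with 5 Mb bins. They numbered 29 to 49 when a replicate was left out, highest without replicate 3. The difference of 17q turned to -0.40 against the 18 other autosomes, and that of 20q to 0.0345 against the 3 inner bins of 20p. The other arm differences kept their sign, but that of 1q fell from 0.196 to 0.0129 against the 18 other autosomes. Of the 21 named regions 13 lost the call in at least 1 alternative and none changed sign. The causes were not tested. With 3 libraries per population the exact two-sided permutation test used, which ignores the pairs, cannot go below 0.1. A gain carried equally by both populations cannot be seen.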
